A study of Mus musculus with 102 samples.

Results

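The cerebellar cortex was represented by 4 of the 102 arrays of the series, chosen by their labels: 2 arrays of the cerebellar cortex vermis (Cb vermis) and 2 of the cerebellar cortex lobe (Cb lobe). They were set against the mean of 46 other regions of the brain and spinal cord, measured on 92 arrays, with the retina, pituitary and pineal left out, over all 45,037 probe sets other than controls. All groups came from male Balb/c mice 7 to 8 weeks old, with no treatment and no genetic change named in the labels. Tissue was punched from frozen slices every 4 h over 1 day, in 6 time points under a light/dark cycle or in constant darkness, and the RNA of a region was pooled over time points and mice before hybridization. An array is therefore the average of many animals over the day, the 2 arrays of a region are 2 runs of this procedure, and p-values measure only the spread between such pools. Values are log2 expression values by RMA (robust multi-array average, which puts all arrays on a common scale). A difference of 1 is a doubling of the signal, and levels can be compared between regions for a probe set but not between probe sets.

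The cerebellar cortex is a folded sheet in which a few cell types are repeated over the whole surface. Granule cells, small and very numerous excitatory neurons, receive mossy fibres and send parallel fibres to the dendrites of Purkinje cells. Purkinje cells are large GABAergic neurons whose axons form the output of the cortex and inhibit the neurons of the cerebellar nuclei. Stellate, basket, Golgi and unipolar brush cells are the interneurons, and Bergmann glia are radial astrocytes that wrap the Purkinje cell synapses.

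Marker lists for these cells were set beside the labels. The lists were chosen with earlier results of these data known, so they are no independent check of the labels. The mean of the 22 measured Purkinje cell genes was 11.42 to 11.55 in the 4 cerebellar cortex arrays, against 8.56 to 9.92 in the means of the other regions, of which the cerebellar nucleus (Cb nucleus) was the highest. The 22 granule cell genes averaged 11.10 to 11.30 in the cerebellar cortex, against at most 9.21 elsewhere, in the posterior olfactory bulb. The 12 Bergmann glia genes averaged 10.78 to 10.87, against at most 10.02, in the suprachiasmatic nucleus (SCN). The Cb lobe and the Cb vermis ranked first and second of the 48 regions for each of these lists.

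**Figure D1:**
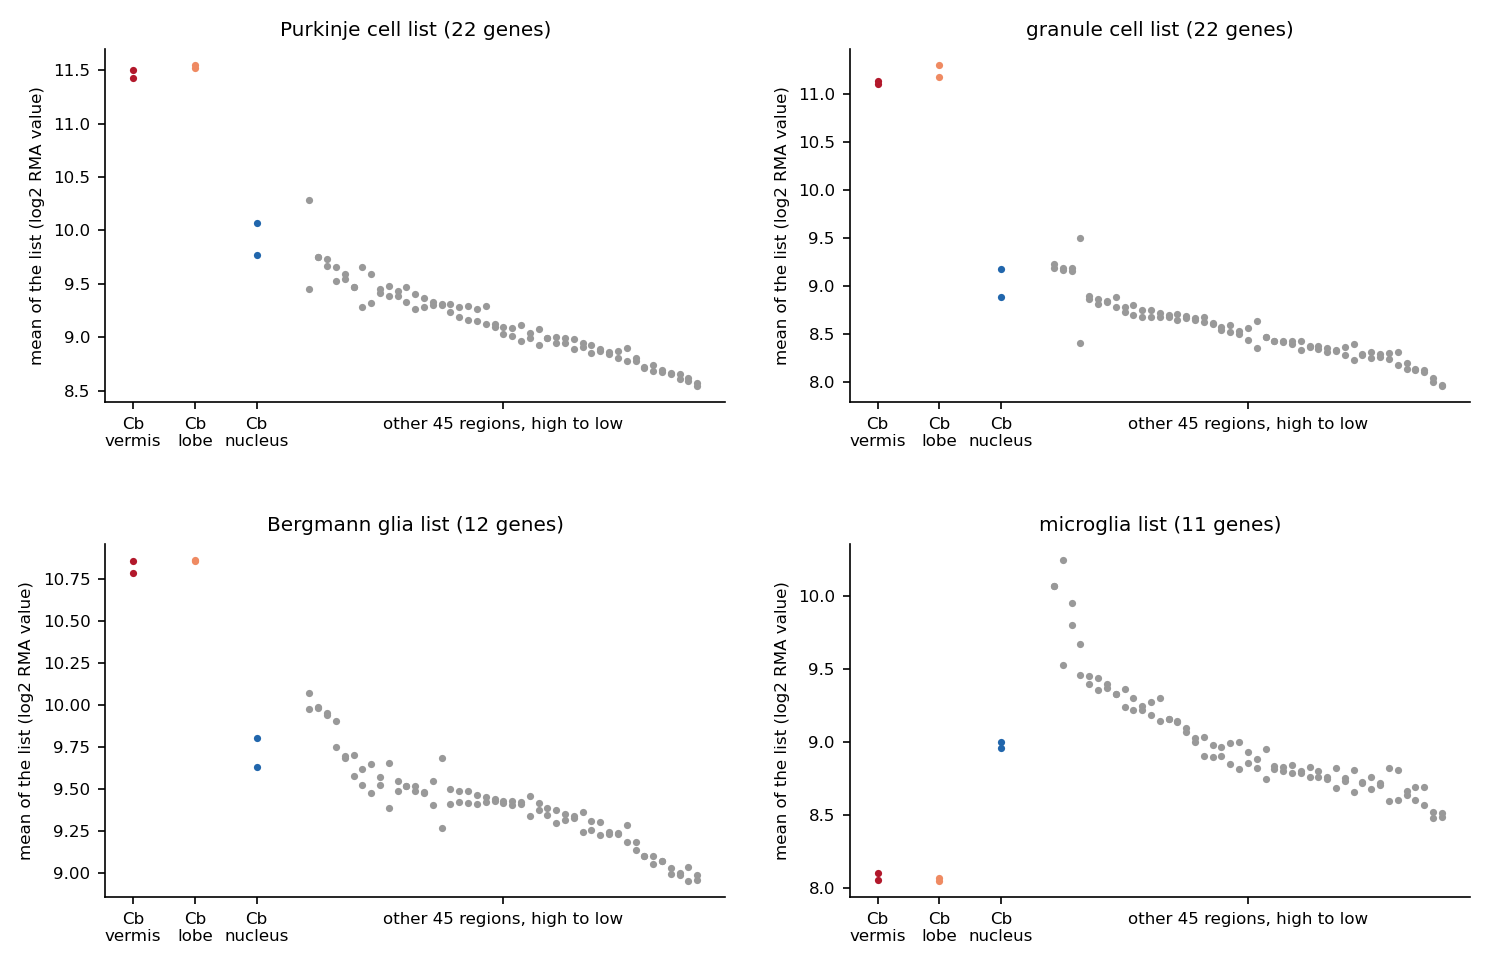
Mean log2 RMA value of 4 marker lists in each array, with the Cb vermis and Cb lobe arrays at the left, Cb nucleus beside them and the other regions sorted from high to low, 1 point per array. The cerebellar cortex arrays lie above the mean of every other region for the Purkinje cell, granule cell and Bergmann glia lists and below it for the microglia list, where they are between 8.05 and 8.10.

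Some arrays stood apart, and their values accompany the results that they touch. Replicate 1 of the inferior colliculus (IC), a midbrain auditory nucleus that lies against the cerebellum, had 11.36 for the granule cell gene *Gabra6* and 11.23 for the Purkinje cell gene *Pcp2*, against 5.98 and 7.80 in IC replicate 2. Its mean over the granule cell list was 9.50, against 8.41 in the other IC array. This pool is among the 92 arrays on the other side of the comparison, so the comparison was also made without it. Within the cerebellar cortex, Cb lobe replicate 1 had a value of 13.90 for *Ttr*, the transthyretin gene of the choroid plexus, against 8.94 in Cb lobe replicate 2 and 10.71 and 9.39 in Cb vermis. The mean of the 12 choroid plexus genes ran from 6.65 to 7.52 over the 4 arrays. The 4 arrays correlated with each other at 0.9951 to 0.9967 over all probe sets, and their regional means correlated with those of other regions at 0.9297 (median eminence, ME) to 0.9652 (IC). The IC mean includes IC replicate 1, and the correlation without this pool was not computed. For Cb nucleus the correlation was 0.9603.

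In the fit over all regions, 27,345 probe sets (60.7%) differed between the cerebellar cortex and the mean of the other regions, of which 11,252 (25.0% of those tested) were higher and 16,093 (35.7%) lower (limma, Benjamini-Hochberg adjusted p under 0.05). Most of these differences were small. The median over all probe sets was -0.0673 and the middle of the distribution ran from -0.186 to 0.141 (quartiles). A difference of at least 1 was reached by 1,396 probe sets upward (3.10%) and 897 downward (1.99%), and one of at least 3 by 71 upward and 16 downward. The extremes were 7.89 and -3.61, so the largest excesses of the cerebellar cortex were far larger than its largest deficits. When the 48 regional means were taken as the samples, so that the spread between regions set the error, 3,844 probe sets (8.54%) were higher and 1,879 (4.17%) lower. In bulk tissue of this kind, fewer cells of a type and less RNA per cell cannot be told apart.

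Both regions gave the same picture. Taken alone, Cb vermis was higher than the other 46 regions for 8,808 probe sets (19.6%) and lower for 9,649 (21.4%), and Cb lobe was higher for 9,804 (21.8%) and lower for 11,587 (25.7%). The regions shared 8,149 probe sets that were higher and 7,930 that were lower in each, and 7 were called in opposite directions. The differences of the 2 regions correlated at 0.973 over probe sets, a description in which both sides share the other 46 regions. Without IC replicate 1, 11,238 probe sets were higher and 15,979 lower.

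A count by single arrays shows how often the cerebellar cortex was an extreme of the whole brain. For 1,282 probe sets (2.85%) of 705 named genes, all 4 cerebellar cortex arrays were above all 92 others, and for 358 (0.795%) of 278 genes they were below all others. The count below all others can only rise when cerebellar cortex arrays are left out, since fewer have to lie below the rest. It was 573 without Cb vermis replicate 2, 461 without Cb vermis replicate 1 and 901 without both. It was 382 without Cb lobe replicate 2, 407 without Cb lobe replicate 1 and 464 without both. No region was the steady runner-up. Among the 1,282 probe sets, the second highest level was in the anterior olfactory bulb (OB anterior) for 100 (7.80%), in the SCN for 79 (6.16%), in the habenula (Hb) for 77 (6.01%) and in Cb nucleus for 56 (4.37%). At the low end, OB anterior for 29 of the 358 probe sets (8.10%) and the supraoptic nucleus (SO) for 28 (7.82%) came closest.

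The 15 genes with the largest excess were markers of granule cells, Purkinje cells and their glia, together with some genes of less defined role. *Gabra6*, the α6 subunit of the GABA-A receptor that granule cells carry, had 13.46 and 13.34 in Cb vermis and 13.63 and 13.87 in Cb lobe, while the means of the other regions ran from 5.24 to 9.76 with a median of 5.45. The cerebellar cortex did not overlap any other region, and its difference of 7.89 (SE 0.31, adjusted p = 5.15e-30) was the largest of all probe sets. The highest other region was Cb nucleus, and without IC replicate 1 the difference was 7.95 (SE 0.163). *Cbln3*, a cerebellin that granule cells secrete together with *Cbln1*, had 12.62 and 12.64 in Cb vermis and 12.78 and 12.84 in Cb lobe, against a median of 5.21 and a maximum of 8.81 elsewhere (difference 7.28, SE 0.24). *Cbln1* itself, whose product bridges parallel fibres and Purkinje cell spines, was less confined. Its probe set with the largest excess had 13.03 to 13.30 in the 4 arrays, while the other regions ran from 4.61 in the medial caudate putamen to 11.72 in Cb nucleus. Its difference was 5.07 (SE 0.21), and all 3 of its probe sets were higher.

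*Neurod1*, a basic helix-loop-helix transcription factor of granule cells, had 12.37, 12.14, 12.39 and 12.65 in the cerebellar cortex (difference 5.51, SE 0.22), and its next highest region was not cerebellar but the Hb, at 10.84. *Zic1*, a zinc finger factor of granule cells and their precursors, showed this most clearly. It had 13.02, 12.88, 12.95 and 13.11 in the cerebellar cortex, against 12.97 in the Hb and 4.97 in the posterior amygdala (difference 4.22, SE 0.26). Its excess over the mean of the other regions did not pass the test when regional means were the samples (adjusted p = 0.0764). *Aqp6*, an aquaporin, was likewise at 10.15 to 10.27 in the cerebellar cortex and 9.37 in the Hb, with a median of 4.89 in the other regions. *Gdf10*, a TGF-β family ligand made by Bergmann glia, had 10.96 to 11.10 against at most 7.97 elsewhere (difference 4.12, SE 0.12).

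Among genes of Purkinje cells, *Car8*, a carbonic anhydrase-related protein that binds the IP3 receptor, had 13.19 and 13.13 in Cb vermis and 13.26 and 13.43 in Cb lobe, against a median of 6.70 and a maximum of 10.60 in Cb nucleus (difference 6.44, SE 0.25). *Pcp2*, a modulator of G proteins and a classical Purkinje cell marker, had 13.83 to 14.09 in the 4 arrays, against a median of 7.23 in the other regions (difference 6.43, SE 0.22). Cb nucleus had 12.73 and 12.84, and the cortex exceeded it by only 1.16 (SE 0.376, limma adjusted p = 0.00993). The source of this RNA in Cb nucleus was not tested. *Ppp1r17*, a phosphatase inhibitor and substrate of cGMP-dependent kinase, had 11.08 to 11.43, against 9.10 in the dorsomedial hypothalamus (DM), the highest other region (difference 5.40, SE 0.16). *Pvalb*, the calcium buffer parvalbumin of Purkinje cells and interneurons, was at 13.59 to 13.83, but the other regions spread from 7.14 in the ventromedial hypothalamus to 13.31 in Cb nucleus, so that its difference of 4.05 (SE 0.10) over the mean became 0.42 (SE 0.177, adjusted p = 0.0502) over Cb nucleus.

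The remaining genes of this group were *Cnpy1*, *En2*, *Exph5* and *Arhgef33*. *Cnpy1* encodes a regulator of FGF signalling in the isthmus, known from zebrafish, and had 11.12 to 11.51 in the cerebellar cortex against a median of 4.28 elsewhere (difference 6.83, SE 0.19). *En2*, the homeobox gene that patterns midbrain and cerebellum, varied more between pools than its neighbours in the list, with 10.91 and 10.28 in Cb vermis and 10.32 and 11.29 in Cb lobe. It still lay far above the maximum of 7.88 in Cb nucleus (difference 4.17, SE 0.08). *Exph5*, which binds Rab27, had its next highest level in the motor cortex (9.42, against 11.32 to 11.65 in the cerebellar cortex), and *Arhgef33*, a guanine nucleotide exchange factor, had 9.70 to 9.90 against at most 6.79. The rule that chose these genes asked for all 4 arrays to be beyond those of nearly all other regions, and for 14 of the 15 they were above all 92 arrays, the exception being *Zic1*. All 15 passed the test in Cb vermis alone, in Cb lobe alone and without IC replicate 1.

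Of the 22 measured Purkinje cell genes, 21 were higher in the cerebellar cortex, against 25.0% of all probe sets, none was lower and 12 were above all other arrays. Their median difference was 1.84, against -0.0673 for all probe sets, and 15 passed with regional means as the samples. *Slc1a6*, the glutamate transporter of Purkinje cell spines, had 11.29 to 11.41 against at most 8.96 elsewhere (difference 3.81). *Homer3*, a scaffold that ties group I metabotropic receptors to the IP3 receptor, differed by 3.34 and *Rgs8*, a regulator of G protein signalling, by 3.15. Other members were shared with forebrain or brainstem regions: *Rora*, the nuclear receptor mutated in the staggerer mouse, was at 11.81 to 12.01 but reached 12.93 in the medial geniculate, and *Plcb4* at 12.22 to 12.39 was exceeded in 4 regions. *Foxp2* did not pass the test (8.38 to 9.09, against a median of 9.03, difference -0.17), and 25 regions had a higher mean. The promoters of Purkinje cell genes are shown here because the list moved together and *Rora* belongs to it. The motif searched was the ROR half-site AGGTCA, on either strand, in the RefSeq window from 250 bases before to 50 bases after the start. It was found for 16% of 27,025 genes, for 5 of the 14 Purkinje cell genes with a window, for 3 of 17 granule cell genes and for 2 of 9 Bergmann glia genes. In the sequences below, 5′ to 3′ on the strand of the gene, capitals mark AGGTCA or its reverse complement TGACCT. *Pcp2* (chr8:3625498-3625797, minus strand, the first of 4 starts), *Homer3* (chr8:70282749-70283048, plus strand) and *Dner* (chr1:84696172-84696471, minus strand) hold a match, and *Gabra6* (chr11:42321023-42321322, minus strand), the gene with the largest excess, holds none. Coordinates are those of GRCm38.p6.
Pcp2: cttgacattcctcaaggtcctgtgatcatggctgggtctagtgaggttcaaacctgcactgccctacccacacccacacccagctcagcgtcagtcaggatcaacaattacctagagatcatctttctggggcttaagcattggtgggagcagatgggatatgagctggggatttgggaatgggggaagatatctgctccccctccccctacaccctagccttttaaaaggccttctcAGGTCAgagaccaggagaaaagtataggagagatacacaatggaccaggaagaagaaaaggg
Homer3: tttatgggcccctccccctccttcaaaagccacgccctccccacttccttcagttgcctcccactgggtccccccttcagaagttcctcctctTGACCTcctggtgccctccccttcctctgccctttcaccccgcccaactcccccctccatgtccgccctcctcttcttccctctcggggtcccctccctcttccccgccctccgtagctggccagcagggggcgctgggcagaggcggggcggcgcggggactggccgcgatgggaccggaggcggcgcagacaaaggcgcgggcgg
Dner: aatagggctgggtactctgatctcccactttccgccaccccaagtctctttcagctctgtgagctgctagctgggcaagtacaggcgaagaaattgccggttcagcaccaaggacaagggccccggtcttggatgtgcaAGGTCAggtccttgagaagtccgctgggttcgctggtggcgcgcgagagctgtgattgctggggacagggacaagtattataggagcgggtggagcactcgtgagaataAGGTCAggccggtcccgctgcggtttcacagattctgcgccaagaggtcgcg
Gabra6: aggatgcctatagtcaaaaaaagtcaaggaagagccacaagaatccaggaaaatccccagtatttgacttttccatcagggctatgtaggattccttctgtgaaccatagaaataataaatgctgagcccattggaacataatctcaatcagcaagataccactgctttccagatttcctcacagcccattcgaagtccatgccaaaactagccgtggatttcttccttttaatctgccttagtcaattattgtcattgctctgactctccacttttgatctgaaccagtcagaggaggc
Counted from the start, the match in *Pcp2* begins at -12, that in *Homer3* at -157 and those in *Dner* at -111 and -2. A match describes letters only and shows no binding. *Dner*, a Notch ligand of Purkinje cells, had 12.77 to 13.02, against a median of 11.67 and a maximum of 12.56 in the SCN (difference 1.38, SE 0.075).

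The granule cell list behaved in the same way. Of its 22 measured genes, 21 were higher, none was lower and 12 were above all other arrays, with a median difference of 2.60, and 15 passed with regional means as the samples. *Pax6*, a paired box factor of granule cells, had 10.66 to 11.20, against at most 9.50 in the posterior olfactory bulb (difference 3.79). *Grm4*, the presynaptic metabotropic receptor of parallel fibres, had 11.98 to 12.34, against at most 10.90 in the mediodorsal thalamus (difference 2.78). *Cadps2*, which primes dense-core vesicles, was at 12.23 to 12.56 and was exceeded by the Hb at 12.87, and *Reln*, the extracellular matrix protein reelin, was at 12.49 to 12.57 with OB anterior close at 12.40. *Slc17a7*, the vesicular glutamate transporter of parallel fibres and of cortical neurons, was above the mean by 1.84 (SE 0.13) with 10.05 to 10.22, but 12 regions had a higher mean, up to 11.65 in CA2/CA3. *Il16* did not pass the test (difference -0.01).

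The 12 Bergmann glia genes comprised 11 that were higher, 5 of them above all other arrays, and *Sox9*, which did not pass the test (7.83 to 8.17, difference -0.01). Their median difference was 1.08. Besides *Gdf10*, *Dao*, D-amino acid oxidase, had 8.28 to 8.42 against at most 6.89 (difference 2.60), and *Septin4* 12.37 to 12.54 against at most 12.06 (difference 1.93). *Slc1a3*, the glutamate transporter GLAST, had 12.74 to 12.85 against at most 12.49 in the SCN (difference 1.15). *Fabp7*, a lipid binding protein of radial glia, was higher by 0.96, although OB anterior stood at 13.30 against 11.10 to 11.31 in the cerebellar cortex. Of 14 interneuron and unipolar brush cell genes, 10 were higher and 4 lower (median 1.23), beside 25.0% and 35.7% of all probe sets. With regional means as the samples, 5 of the 14 passed, all higher. *Kit*, the receptor tyrosine kinase of stellate and basket cells, differed by 3.13 with 10.86 to 11.07, *Tfap2b*, a transcription factor of interneurons, by 2.26 although the superior colliculus reached 9.31, and *Eomes*, which marks unipolar brush cells, by 1.83 with 7.96 to 8.42 against 10.55 in the posterior olfactory bulb.

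**Figure D2:**
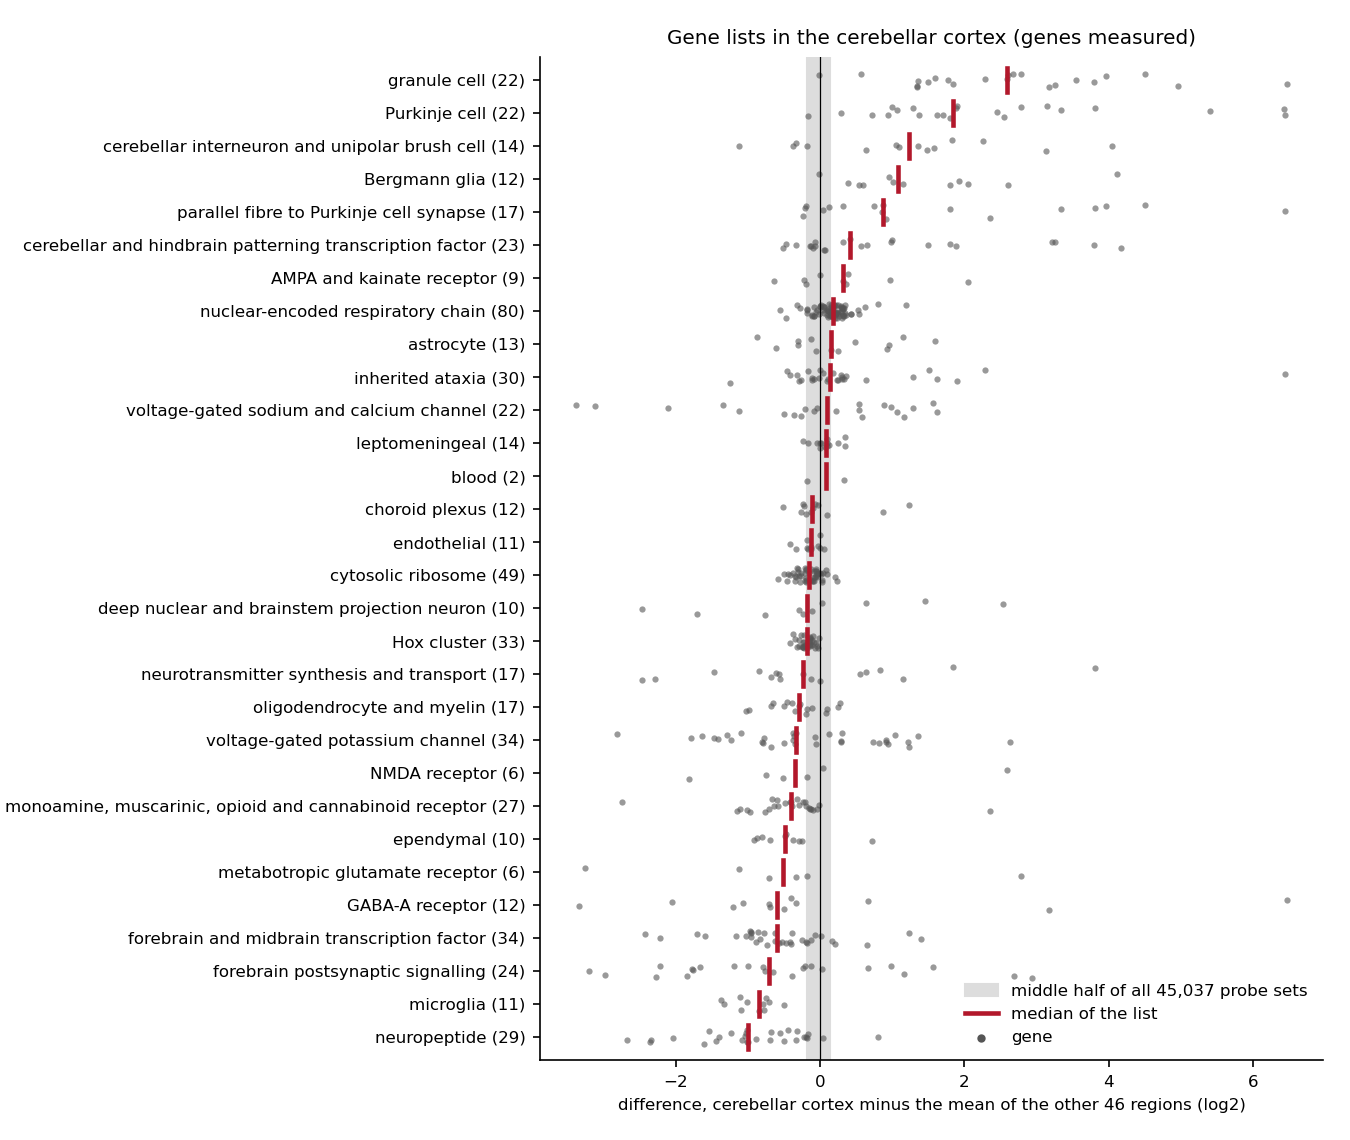
Difference of the cerebellar cortex from the mean of the other 46 regions (log2) for each measured gene of 30 lists, sorted by the list median, which the vertical bars mark. The band holds all probe sets from the lower to the upper quartile, -0.186 to 0.141. Granule and Purkinje cell genes are at the top with medians of 2.60 and 1.84, and neuropeptide and microglia genes at the bottom with -1.0 and -0.85.

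The largest deficits were smaller than the largest excesses. The 15 genes included receptors, ion channel subunits, cytoskeletal and trafficking proteins, and some genes of less defined role. *Grm5*, a metabotropic glutamate receptor coupled to Gq, had 6.24 and 6.47 in Cb vermis and 5.86 and 5.63 in Cb lobe, against regional means of 7.35 in the ME to 11.73 in the olfactory tubercle (median 9.62). This probe set had the largest deficit of all, with a difference of -3.61 (SE 0.11, adjusted p = 7.01e-35), and all 4 arrays were below the 92 others. A second *Grm5* probe set differed by -3.25 and had 8.06 and 7.58 in Cb vermis, against 5.92 and 5.85 in Cb lobe. *Mal2*, a membrane trafficking protein, had 5.06 to 5.80 in the cerebellar cortex and only OB anterior, at 5.14, was as low (difference -3.60, SE 0.11). *Gabra5*, the α5 GABA-A subunit abundant in the hippocampus, had 5.36, 5.48, 5.02 and 4.97, against a median of 8.70 and a maximum of 11.45 in CA1 (difference -3.34, SE 0.11). Values near 5 lie close to the dim end of the scale, where RMA compresses differences.

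Sodium channel subunits typical of embryonic and forebrain neurons were among them. *Scn3a* had 5.80 and 5.38 in Cb vermis and 4.77 and 4.55 in Cb lobe, against a median of 8.83, with the lowest other mean in Cb nucleus at 5.85 (difference -3.38, SE 0.10). *Scn3b* had 6.76 to 7.51, against a median of 10.53 and 12.71 in CA1 (difference -3.12, SE 0.09). Of growth and cytoskeletal genes, *Basp1*, a membrane-bound protein of growth cones and terminals, had 9.99 and 9.56 in Cb vermis and 8.74 and 8.39 in Cb lobe, against 11.14 to 13.18 elsewhere (difference -3.29, SE 0.06). *Enc1*, an actin-binding Kelch protein, had 9.49 and 9.21 in Cb vermis and 7.84 and 8.01 in Cb lobe, and OB anterior at 8.80 lay between them (difference -2.80, SE 0.06). *Rgs4*, a regulator of Gq and Gi signalling, had 6.95 to 7.69 against 8.76 to 12.64 (difference -3.20, SE 0.08). Where *Rgs8* was one of the larger excesses, its relative *Rgs4* was one of the larger deficits.

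The other genes of the lowest 15 were *St6galnac5* (a sialyltransferase, difference -3.22), *Lrrtm1* (a postsynaptic adhesion protein, -3.03), *Neto1* (an auxiliary subunit of kainate receptors, -2.87), *Celf6* (an RNA-binding protein, -2.79), *Minar2* (-2.89) and the less characterized D430019H16Rik (-3.31) and B230209E15Rik (-2.75). For 11 of the 15, chosen by the same rule, all 4 arrays were below all 92 others. The deficit was present in each region for all 15: it ran from -3.62 to -2.09 in Cb vermis alone and from -3.91 to -2.93 in Cb lobe alone. Across the 897 probe sets lower by at least 1, Cb vermis was above Cb lobe for 758 (median difference of the regions 0.19), and 892 were lower in Cb vermis alone and 895 in Cb lobe alone. Across the 1,396 higher by at least 1, Cb vermis was above Cb lobe for 268 (median -0.12). The share of all probe sets with Cb vermis above Cb lobe was not determined, so these splits describe the 2 sets only.

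The receptor families were split by subunit. Of 12 measured GABA-A subunits 3 were higher and 9 lower (median -0.59), beside 25.0% and 35.7% of all probe sets. With regional means as the samples, 5 of the 12 passed, 2 of them higher. Besides *Gabra6*, *Gabrd*, the δ subunit that pairs with it outside synapses, was at 10.82 or more in each array, just above 10.63 in the ventral thalamus (VA/VL), its highest other region (difference 3.17), and *Gabrb2* differed by 0.67. *Gabra3* had 7.22 to 7.85 against a median of 9.61 (difference -2.05), and *Gabra2*, *Gabra4*, *Gabrb1*, *Gabrg1*, *Gabrg3*, *Gabre* and *Gabrq* were lower by 0.33 to 1.20. Of 6 measured NMDA receptor subunits only *Grin2c*, the GluN2C subunit of adult granule cells, was higher, with 10.72 to 11.05 against at most 9.47 (difference 2.60, SE 0.08). *Grin2b*, the forebrain GluN2B subunit, had 7.18 to 7.77 against a median of 8.99 (difference -1.81), 4 subunits in all were lower and *Grin2a* did not pass the test (0.04). Of 6 metabotropic receptors, *Grm4* was higher and 5 were lower (median -0.52), among them *Grm7* by 1.12 and *Grm2* by 0.17. With regional means as the samples, 3 of the 6 NMDA subunits passed, 1 of them higher. Of the 6 metabotropic receptors 3 passed in this way, 1 of them higher.

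Of 9 AMPA and kainate subunits, 5 were higher and 3 lower, beside 25.0% and 35.7% of all probe sets. The median of the 9 was 0.33. It was 0.06 against only the other 15 regions of the same sampling period, and 0.06 with the mean over all probe sets of a gene. With regional means as the samples, 2 of the 9 passed, both higher. *Gria4*, the AMPA subunit of granule cells and Bergmann glia, had 12.25 to 12.38 against at most 11.04 (difference 2.06), *Grik2* differed by 0.97, and *Gria2* was lower by 0.20. The parallel fibre synapse list held 12 genes that were higher and 3 that were lower of 17 measured (median 0.88). With regional means as the samples, 5 of the 17 passed, all higher. In this list *Cnr1*, the cannabinoid receptor of parallel fibre terminals, had 11.96 to 12.27 and was exceeded only by the lateral caudate putamen at 12.52. Its difference was 2.35, but *Cnr1* did not pass with regional means as the samples. *Dagla*, which makes its ligand, differed by 0.74. Of 17 genes of transmitter synthesis and transport, 6 were higher and 10 lower (median -0.24, or -0.47 with the mean over all probe sets of a gene). With regional means as the samples, 4 of the 17 passed, 2 of them higher. *Gad1*, a GABA-synthesizing enzyme, was higher by 0.84 (12.59 to 12.81) while the other such enzyme, *Gad2*, was lower by 0.56 (10.23 to 10.33). The neuronal transporter *Slc1a1* had 9.24 to 9.42 against 9.75 to 11.94 elsewhere (difference -1.47), and the GABA transporter *Slc6a11* had 7.84 to 8.75 against a median of 10.95 (difference -2.28).

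**Figure D3:**
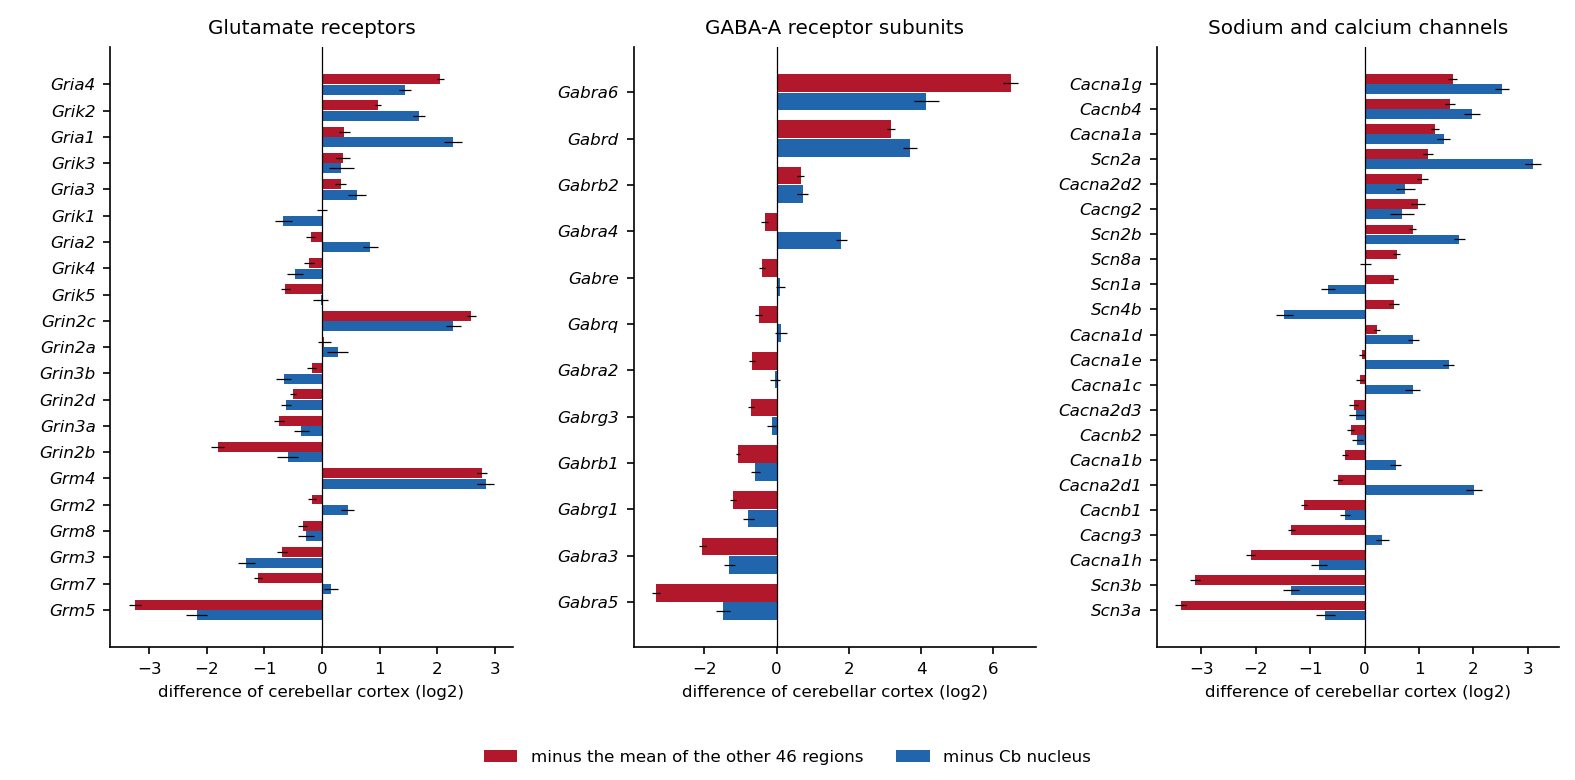
Difference of the cerebellar cortex (log2) for glutamate receptors, GABA-A subunits and sodium and calcium channels, from the mean of the other 46 regions (red) and from Cb nucleus (blue), with bars from 0 and error bars of 1 SE. *Gabra6*, *Gabrd*, *Grin2c*, *Grm4* and *Gria4* lie to the right of 0 on both measures, and *Gabra5*, *Grm5*, *Scn3a* and *Scn3b* to the left. Each gene stands by its probe set with the highest mean, for *Gabra6* one with a difference of 6.47.

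Of 34 voltage-gated potassium channel genes, 13 were higher and 18 lower (median -0.34), beside 25.0% and 35.7% of all probe sets, and 6 passed with regional means as the samples. *Kcng4*, a modulatory subunit of Kv2 channels, had 9.82 to 10.03, against 10.11 in the Hb and a median of 6.87 (difference 2.63). *Kcnd2*, the Kv4.2 channel of granule cells, had 12.10 to 12.44 (difference 1.36), and *Kcnc1*, the Kv3.1 channel of fast-spiking cells, differed by 1.22. Its relative *Kcnc2* was the most reduced, with 7.96 and 7.56 in Cb vermis and 6.19 and 6.10 in Cb lobe against a median of 9.92 (difference -2.81). Of 22 sodium and calcium channel genes, 11 were higher and 9 lower (median 0.09, or -0.03 with the mean over all probe sets of a gene). *Cacna1g*, a T-type calcium channel of Purkinje cells, differed by 1.62, the auxiliary subunit *Cacnb4* by 1.57 and the P/Q-type *Cacna1a* by 1.29, whereas the T-type *Cacna1h* had 5.92 to 6.43 against a median of 8.31 (difference -2.10). *Scn2a*, *Scn8a* and *Scn1a* were higher by 1.16, 0.59 and 0.55.

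Neuropeptides were the list with the lowest median. Of 29 measured, 27 were lower, *Penk* (proenkephalin) was higher by 0.80 and *Cck* did not pass the test (0.04), with a median of -1.0. The share of all probe sets that was lower was 35.7%, and with regional means as the samples 2 of the 29 passed, both lower. *Sst*, somatostatin, had 8.88 and 8.71 in Cb vermis and 7.17 and 7.26 in Cb lobe against a median of 10.86 (difference -2.67). *Tac1*, the substance P precursor, had 7.03 to 8.60 (difference -2.36), and *Vgf* 8.50 to 9.01 against 9.84 to 12.65, below all other arrays (difference -2.33). Cb vermis was above Cb lobe for 26 of the 29, a split for which the share over all probe sets was not determined. The median of the list was -0.66 in Cb vermis alone and -1.07 in Cb lobe alone. Of 27 monoamine, muscarinic, opioid and cannabinoid receptors, *Cnr1* was higher and 22 were lower (median -0.40). With regional means as the samples, 2 of the 27 passed, both lower, so the excess of *Cnr1* was not kept. *Htr2c*, a serotonin receptor, varied widely with 8.45 and 7.38 in Cb vermis and 7.26 and 5.81 in Cb lobe against a median of 10.51 (difference -2.75), and *Chrm1* was at 7.79 to 8.06 (difference -1.15).

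Of 24 signalling proteins that mark forebrain dendrites, 6 were higher and 16 lower, beside 25.0% and 35.7% of all probe sets. Their median was -0.71, or -0.36 with the mean over all probe sets of a gene, and 4 passed with regional means as the samples. *Camk4*, a nuclear calcium-dependent kinase of granule cells, had 12.41 to 12.78, beside 12.45 in the medial caudate putamen (difference 2.94), and *Adcy1*, a calcium-stimulated adenylyl cyclase, had 13.44 to 13.68 against at most 13.18 in the dentate gyrus (difference 2.68). *Camk2a*, the kinase of forebrain spines, had 9.48 to 9.84 against a median of 11.37 (difference -1.77), *Ddn*, a dendritic protein, 6.55 to 7.57 against 13.69 in CA1 (difference -2.98), and *Ptk2b* differed by -2.22. None of these 3 deficits passed the test when regional means were the samples (adjusted p = 0.216, 0.177 and 0.237).

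Of 23 cerebellar and hindbrain patterning factors 13 were higher and 3 lower (median 0.42), and of 34 forebrain and midbrain factors 4 were higher and 25 lower (median -0.59), beside 25.0% and 35.7% of all probe sets. With regional means as the samples 8 of the 23 passed, all higher, but only 1 of the 34, a higher one, so that none of the 25 lower calls was kept. *Zic5* had 8.76 to 9.89 against 10.01 in the Hb and a median of 5.48 (difference 3.65, for the probe set that differed most), and *Meis1* had 8.95 to 9.22 against at most 8.72 (difference 1.81). On the other side *Lhx2* had 5.14 to 5.55 against a median of 7.91 (difference -2.43), *Bcl11b* 6.45 to 7.37 against 12.53 in the lateral caudate putamen (difference -2.21) and *Dlx1* 6.08 to 6.49 (difference -1.59). The 4 higher members of the forebrain list were *Id2* (1.40), *Otx2* (1.23), *Nr4a2* (0.65) and *Nr2f1* (0.21). *Otx2* is also a choroid plexus gene, and it had 6.91 and 7.79 in Cb vermis and 7.00 and 6.51 in Cb lobe, beside 10.71 and 9.39 in Cb vermis and 13.90 and 8.94 in Cb lobe for *Ttr*. The part of choroid plexus RNA in its level was not tested. Of 33 Hox cluster genes, which specify hindbrain and spinal cord, none was higher and 23 were lower (median -0.18, beside -0.0673 for all probe sets). Of them *Hoxb5* differed most, by -0.41. The list medians of the 4 arrays were 6.03 to 6.20, toward the dim end of the scale. With regional means as the samples, 1 of the 33 passed, a lower one.

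Of 30 measured genes mutated in inherited ataxias, 15 were higher, 8 lower and 7 did not pass the test, with a median of 0.14. Of all probe sets 25.0% were higher and 35.7% lower. With regional means as the samples, 7 of the 30 passed, 6 of them higher. *Car8*, *Rora*, *Cacna1g* and *Cacna1a*, described above, were shared with the Purkinje cell list. *Fgf14*, an intracellular partner of sodium channels, had 11.06 to 11.25 against at most 10.05 (difference 2.29), *Syne1*, a nuclear envelope protein, 12.18 to 12.37 against at most 11.93 (difference 1.51), and *Ppp2r2b*, a phosphatase subunit, 8.80 to 9.13 against a median of 10.23 (difference -1.25). Many other ataxia genes lay near 0, for example *Atxn3* (0.05), *Atxn7* (0.00) and *Atxn1* (-0.08), none of which passed the test. Of 80 nuclear genes of the respiratory chain 55 were higher and 9 lower, by little (median 0.18). *Ndufa4* was at 12.94 to 13.01 against at most 12.77 (difference 0.81). With regional means as the samples, 5 of the 80 passed, all higher. Against Cb nucleus alone, 5 of the 80 were higher and 36 lower (median -0.15). Of 49 cytosolic ribosomal genes 2 were higher and 29 lower (median -0.15), and 1 passed with regional means as the samples, a lower one.

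Among non-neuronal cells, microglia stood out. All 11 measured microglial genes were lower, against 35.7% of all probe sets, and 7 of them had all 4 arrays below all 92 others, against 0.795% of probe sets. Their median difference was -0.85, 8 of the 11 passed with regional means as the samples, and the mean of the list was 8.05 to 8.10 in the cerebellar cortex, against 8.50 in the Hb, the lowest other region, and 10.07 in the globus pallidus, the highest. *Csf1r*, the receptor for the survival factor of microglia, had 10.14 to 10.25 against 10.85 to 12.81 elsewhere (difference -1.32, SE 0.06). *P2ry12*, an ADP receptor of resting microglia, had 7.06 to 7.24 against 7.76 to 10.01 (difference -1.37, SE 0.08), and *Cx3cr1*, the fractalkine receptor, 7.62 to 7.97 against 8.18 to 9.99 (difference -1.10, SE 0.10). Cb vermis and Cb lobe differed little here, with list medians of -0.84 and -0.91 in each alone.

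Other glial and vascular lists moved less. Of 17 oligodendrocyte and myelin genes, 2 were higher and 10 lower (median -0.29, or -0.09 against only the other 15 regions of the same sampling period): *Mbp*, the myelin basic protein, had 13.91 to 14.01 (difference 0.28), and *Olig2*, a factor of the lineage, 7.59 to 7.84 against a median of 8.63 (difference -0.98). Of 13 astrocyte genes, 6 were higher and 5 lower (median 0.15), with *S100b* at 12.09 to 12.32 (difference 1.59) and *Gfap* at 9.11 to 9.44 against 13.69 in the SCN (difference -0.88). None of 11 endothelial genes was higher and 5 were lower (median -0.12). Of 14 leptomeningeal genes 3 were higher and 2 lower (median 0.08), of 12 choroid plexus genes 2 were higher and 4 lower (median -0.11), and of 10 ependymal genes 1 was higher and 9 lower (median -0.48). Of all probe sets 25.0% were higher and 35.7% lower, and no gene of these 3 lists or of the oligodendrocyte list passed with regional means as the samples. The choroid plexus median was -0.30 without Cb lobe replicate 1 and 0.02 without Cb lobe replicate 2. Only 2 blood genes were measured, 1 higher and 1 lower.

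Cb nucleus, the other cerebellar region, was also used as the only reference. The part of cortical tissue in the Cb nucleus pools was not tested. The cerebellar cortex was higher than Cb nucleus for 9,396 probe sets (20.9%) and lower for 10,049 (22.3%), and by at least 1 for 1,826 (4.05%) and 1,108 (2.46%). Both comparisons use the same cerebellar cortex arrays, and Cb nucleus is also 1 of the 46 other regions. Of the 11,252 probe sets that were higher than in the other regions, 7,759 were also higher than in Cb nucleus and 523 were lower. The Purkinje cell list was higher than Cb nucleus for 20 of 22 genes (median 1.25) and the granule cell list for 21 of 22 (median 2.23). The 17 oligodendrocyte genes were lower for 16 (median -1.80), and of 10 genes of deep nuclear and brainstem projection neurons 7 were lower and 1 higher (median -1.73). Against all regions that last list had 3 higher and 5 lower (median -0.18, or 0.00 against the other 15 regions of the same sampling period only). *Uncx*, its homeobox member, was the one higher in both, with 8.33 to 8.93 against 6.72 and 6.88 in Cb nucleus.

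The largest excesses over Cb nucleus were in *Cnpy1* (4.34, SE 0.171), *Gabra6* (4.15, SE 0.337), *Calb1* (4.14, SE 0.371), *Ppp1r17* (4.14, SE 0.275), *Cbln3* (3.91), *Zic5* (3.80), *Aqp6* (3.72) and *Gabrd* (3.68). *Calb1*, the calcium buffer calbindin of Purkinje cells, had 10.54 to 10.88 in the cortex, against 5.90 and 7.14 in the arrays of Cb nucleus, while *Pcp2* stayed high there. The 2 arrays of Cb nucleus were not alike for such genes, for *Gabra6* 9.22 and 10.29 with the probe set of the larger excess over all regions. The largest deficits were in *Cd24a*, a surface glycoprotein (-4.79, SE 0.293), *Slc17a6* (-4.15, SE 0.248), *C1ql3*, a secreted synaptic protein (-4.05), *Lamp5* (-3.92), *Smim17* (-3.88), *Klk6*, a protease of oligodendrocytes (-3.59), *Fbxo32*, a ubiquitin ligase subunit (-3.58), and *Grm5* (-3.41). *Cd24a* had 5.14 to 5.82 in the cortex against 10.40 and 10.23 in Cb nucleus. *Klk6* had 6.84 to 7.03 against 10.53 in each, but it was not set apart from the other regions as a whole (difference -0.12, adjusted p = 0.180).

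Cb vermis and Cb lobe differed for few probe sets: 77 (0.171%) were higher in Cb vermis and 14 (0.0311%) lower. The counts moved with single pools. The number higher was 33 without Cb vermis replicate 1, 48 without Cb lobe replicate 1 and 41 without Cb lobe replicate 2, and the number lower was 28 without Cb lobe replicate 1. The largest excess of Cb vermis was in *Slc17a6*, a vesicular glutamate transporter of thalamus and brainstem that mossy fibres also carry, with 9.66 and 8.94 in Cb vermis and 7.17 and 5.86 in Cb lobe (difference 2.78, SE 0.254, adjusted p = 2.02e-11). It was followed by *Tcf7l2*, a Wnt effector abundant in thalamus and midbrain (8.14 and 7.21 against 5.38 and 5.76, difference 2.10), *Nrgn*, the forebrain protein neurogranin (9.86 and 9.44 against 7.64 and 7.52, difference 2.07), *Grm5* (1.93) and *Gprin3* (8.18 and 8.41 against 6.77 and 6.40, difference 1.71). For each of these genes some other region had a higher mean than Cb vermis. The same held for 75 of the 77, which does not set them apart. Over all 45,037 probe sets, the Cb vermis arrays were above all 92 other arrays for only 1,419. The highest of the other regions was most often the medial preoptic area, the Hb and the DM, with 7 each. Of the 77, 66 were lower in the cerebellar cortex than in the other 46 regions, beside 35.7% of all probe sets.

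For 7 of the 14 probe sets lower in Cb vermis, some other region was above Cb vermis. Among the 7 was *Nr2f1*, only 0.21 above the mean of the other regions, with 24 regions higher than the cerebellar cortex. All 14 were nevertheless higher in the cerebellar cortex than in the mean of the other regions, beside 25.0% of all probe sets. They included *Olfm3*, an extracellular olfactomedin (7.34 and 7.04 in Cb vermis, 8.00 and 8.05 in Cb lobe, at most 5.92 elsewhere; difference -0.83), *Bmp5*, a bone morphogenetic protein (7.93 and 8.14 in Cb vermis, 8.71 and 8.95 in Cb lobe; difference -0.80), *Gcnt1*, a glycosyltransferase (-0.98), *Nr2f1*, a nuclear receptor (-0.94), and *Ninl* (-0.61). Of these genes *Nr2f1* and *Olfm3* no longer passed without Cb vermis replicate 2, *Bmp5* without Cb vermis replicate 1 or Cb lobe replicate 2, and *Ninl* without any of these 3 pools. For *Slc17a6* the choice of region therefore sets the result against the other 46: the difference was -1.08 for Cb vermis alone and -3.86 for Cb lobe alone, and neither of its probe sets passed with regional means as the samples (adjusted p = 0.25 and 0.19). The part of tissue from other regions in the Cb vermis pools was not tested.

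**Figure D4:**
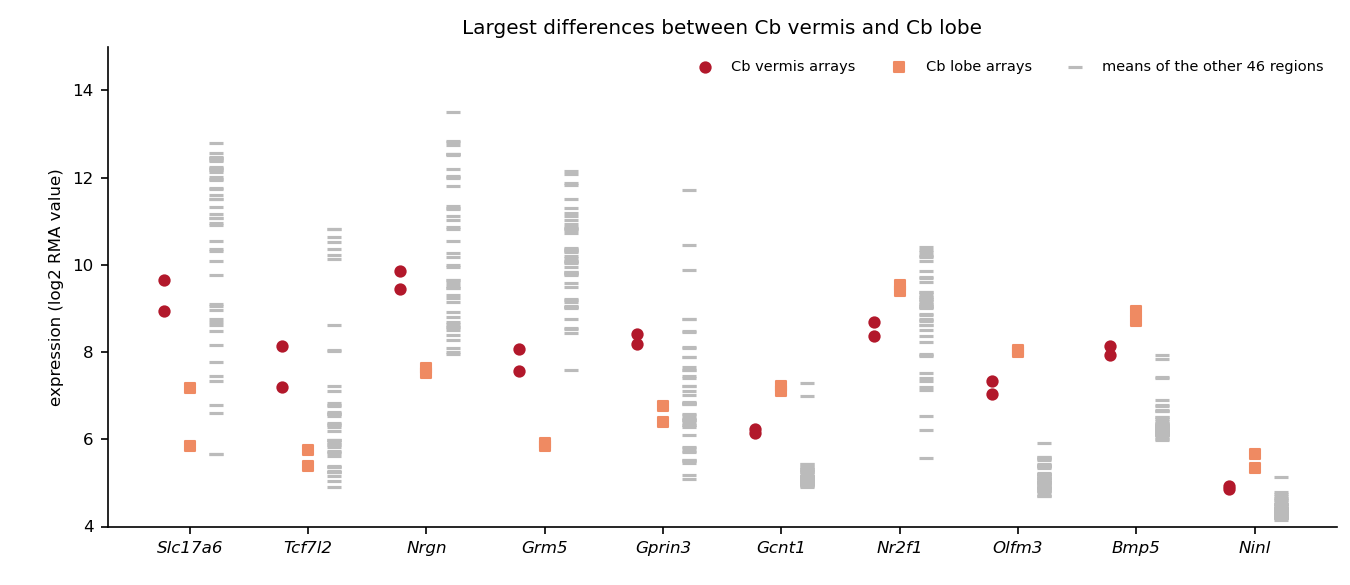
Log2 RMA values of the 5 genes with the largest excess and the 5 with the largest deficit of Cb vermis against Cb lobe, with the means of the other 46 regions as ticks. *Slc17a6* and *Nrgn* of Cb vermis (8.94 and 9.66 for *Slc17a6*) lie within the span of other regions, whereas *Olfm3* and *Bmp5* of Cb lobe lie above it.

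Of the other genes that the study names with the cerebellum, *Ackr1*, a chemokine-binding receptor, had 11.93, 12.00, 11.95 and 11.96, against 9.13 in the ME to 11.06 in the piriform cortex, so that the 4 arrays did not overlap any other region (difference 1.80, SE 0.05, adjusted p = 3.20e-36). *Bmp5* was higher for all 3 of its probe sets, by 2.01, 1.32 and 0.59. *Zdhhc17*, a palmitoyltransferase, had 5 probe sets, of which 4 were higher, by 0.27 to 1.5, and a dim one was lower by 0.17 (adjusted p = 0.0315), a call that was lost in 8 of the alternatives, among them the cyclic loess scaling with a difference of -0.09.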

How the data were processed

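RNA pools of each region were hybridized to Affymetrix mouse arrays, and the deposited log2 expression values were made by the authors with RMA, whose version is not given in the sources used here. They were used as deposited. Arrays give no counts, and their number, 2 per region, limits the precision. Array medians lay between 7.32 and 7.46 and values between 3.88 and 14.84, and both ends of this scale are compressed. Of 45,101 probe sets, 64 controls were left out. Of the 45,037 others, 34,945 named 1 gene in the platform annotation, 932 several and 9,160 none, for 18,193 genes.

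One coefficient per region was fitted with limma 3.58.1 in R 4.3.3 over 96 arrays (48 residual degrees of freedom, median residual SD 0.119). Contrasts set the mean of Cb vermis and Cb lobe against the mean of the other 46 regions, the cortex against Cb nucleus, and Cb vermis against Cb lobe. P-values were adjusted over all probe sets by Benjamini-Hochberg with a threshold of 0.05. The script was tested on simulated data. Named genes were the 15 with the largest difference in each direction among those past the threshold whose 4 arrays lay beyond the arrays of all other regions but at most 1, by the probe set that differed most, 8 in each direction against Cb nucleus, 5 in each direction between Cb vermis and Cb lobe, and every probe set of genes that the study names with the cerebellum. In the lists, a gene stands by the probe set with the highest mean over the 96 arrays among those naming it alone, and listed genes without one were not analysed here. The members and lists were chosen with earlier results of these data known. Genes singled out from the lists were chosen after their values were seen.

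Same-numbered arrays of Cb vermis and Cb lobe share sampling days in the study's supplementary records. Their deviations from the regional means did not move together (correlation -0.0806, and -0.0818 and -0.0409 with Cb nucleus), and the fit with the replicate number as a block is an alternative. The other alternatives were leaving out each array, a filter on dim probe sets, cyclic loess scaling, robust empirical Bayes with a trended variance, the mean over a gene's probe sets, the other regions without Cb nucleus, the sampling day as a random block, regional means as the samples, and other regions of the same sampling period. Each cortical region alone and the omission of IC replicate 1 were chosen after seeing the data. Promoter sequences are from RefSeq (GRCm38.p6). Python 3.11.15 with pandas 2.3.3 and matplotlib 3.10.9 was used for tables and figures.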

Additional observations from a re-analysis of the deposited data

Results flagged for a closer look

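Of 64 groups of 4 cerebellar cortex values that were tested for a value far from the others, 2 had one, and chance flags about 1 in 20 such groups. Both were probe sets of *Zdhhc17*. The brightest of them had 10.99 in Cb vermis replicate 2 against 11.13 to 11.15 in the other 3 arrays, a gap of 0.866 of the whole range. A dim one had 5.98 in Cb lobe replicate 1 against 5.79 to 5.82 in the others, a gap of 0.884.

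Some genes named for their difference from the other 46 regions also differed between the regions of the cerebellar cortex, by the limma test of Cb vermis against Cb lobe. Cb vermis was above Cb lobe by 0.93 for *Scn3a*, 0.58 for D430019H16Rik, 1.21 for *Basp1*, 0.97 for *Minar2* and 1.43 for *Enc1*, all among the 15 largest deficits. The genes chosen for this contrast differed by 2.47 and 2.78 (the probe sets of *Slc17a6*), 2.10 (*Tcf7l2*), 2.07 (*Nrgn*), 1.93 (*Grm5*) and 1.71 (*Gprin3*). Cb vermis was below Cb lobe with differences of -0.98 for *Gcnt1*, -0.94 for *Nr2f1*, -0.83 for *Olfm3*, -0.80 and -0.59 for 2 probe sets of *Bmp5*, -0.61 for *Ninl* and -0.55 for the dimmest probe set of *Pcp2*.

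In the retina, which is outside the comparisons, 1 probe set of *Zdhhc17* averaged 9.06, above the 8.98 of the cerebellar cortex.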

How the results depend on the processing

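With regional means as the samples, 3,844 probe sets were higher and 1,879 lower in the cerebellar cortex. With the Cb vermis arrays only, 9,649 were lower and 464 lay below all other arrays, and with the Cb lobe arrays only, 901 lay below all other arrays. Against only the other 15 regions of the same sampling period, 2,790 probe sets lay above and 1,350 below all other arrays, and the median of the deep nuclear and brainstem projection neuron list was 0.00. The cause of these changes was not tested. By construction, fewer arrays have to lie below the others when a single cortical region is used. In the last case fewer regions have to be exceeded. Leaving out each array in turn gave 9,892 to 10,570 higher and 11,167 to 14,867 lower against the other regions, 7,256 to 9,079 higher and 6,707 to 9,811 lower against Cb nucleus, 33 to 61 higher and 11 to 28 lower between Cb vermis and Cb lobe, and 1,325 to 1,649 above and 382 to 573 below all other arrays. Without IC replicate 1 these counts were 11,238 and 15,979, 9,395 and 10,071, 75 and 16, and 1,284 and 359, in the same order. Cyclic loess gave 11,906 higher and 12,254 lower.

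With the replicate block, 11,259 probe sets were higher and 16,110 lower against the other regions, 9,413 and 10,067 against Cb nucleus, and 76 and 14 between Cb vermis and Cb lobe (113 and 17 over the 4 arrays alone). The pairing by number changed no call of a named gene and moved no count by over 1.5 times. The sampling day as a random block gave 11,095 and 15,568.

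Against the other regions, 658 values of named genes under the alternatives kept their direction and side of the threshold and 15 kept only the direction. These were *Zic1* and both probe sets of *Slc17a6* with regional means as the samples, and dim probe sets of *Zdhhc17*. Against Cb nucleus all 176 kept both, and between Cb vermis and Cb lobe 53 did and 7 kept only the direction. With 2 pools per region, the error covers the spread between pools and not that between animals, and differences near either end of the intensity scale are understated.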
